A study of Mus musculus with 2744 samples.

Results

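Neurog2, a proneural basic helix-loop-helix (bHLH) transcription factor, was used to divide the Day 5 cells of a culture in which mouse embryonic stem cells became motor neurons. The comparison set cells with Neurog2 at 100 CPM or more against cells with 0 Neurog2 reads, within each plate and at matched numbers of detected genes. CPM is a gene's share of the gene reads of a cell, multiplied by 1000000. Of 2448 kept cells in a series of 2744, 98 were Day 5 cells with Neurog2 at 100 CPM or more. A kept cell had at least 500 genes with a read. Plates RPI25, RPI26, RPI27 and RPI28 of the main experiment held 80, 84, 88 and 80 kept cells, and plates TM016 and TM019 of the pilot experiment held 38 and 37. Neurog2 stood at 100 CPM or more in 20, 21, 24 and 22 cells of the main plates and in 2 and 9 cells of the pilot plates. Another 86 cells had Neurog2 reads below 100 CPM. The remaining 45, 46, 41 and 32 cells of the main plates and 36 and 23 cells of the pilot plates had 0 Neurog2 reads. All classes come from the same plates. The labels give no genotype, no agent and no dose for Day 5, and they name a published embryoid body protocol. The source of the Egfp reads in the tables is not stated. The bodies were dissociated with papain, single cells were sorted into plates without a stated gate, and RNA was amplified with a modified CEL-seq protocol, which barcodes each cell's messenger RNA and amplifies it by transcription.

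Proneural bHLH proteins bind E-boxes as dimers with E proteins and switch on genes that move a neural progenitor towards a neuron. Among their known targets are the Notch ligand genes Dll1 and Dll3, and Hes6, which counteracts the Notch effector Hes1. Dll1 activates Notch in neighbouring cells. Notch signalling there keeps Hes genes on and proneural genes off, so that in the developing spinal cord proneural cells are scattered among progenitors. In the ventral cord Neurog2 is expressed in motor neuron progenitors with Olig2, and in cells leaving the cell cycle it works with the motor neuron factors Isl1 and Lhx3.

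The study describes its experiments as biological replicates. Plates of 1 experiment may share a culture, so p-values over plates measure the spread between plates, which may be technical. After matching, 82 cells with Neurog2 on 5 plates entered the comparisons, 18 on RPI25, 20 on RPI26, 21 on RPI27, 16 on RPI28 and 7 on TM019, against 34, 39, 38, 28 and 13 cells with 0 reads on the same plates. TM016 had 2 cells with Neurog2 and was left out of the fits. Both classes carried neural progenitor transcripts, with Sox3 at 562 ± 307.3 CPM in cells with Neurog2 and 721 ± 245.4 CPM in cells with 0 reads (SD, n = 5 plates each). The 10 sums of reads, 1 per class and plate, held 2086460 to 6660468 gene reads. The reads carry no molecular identifiers. The Wilson intervals given here cover the sampling of cells only, and values after ± are an SD or a fitted SE over plates. A single cell with many reads can make up much of a sum. For Hes6, the cell with the most reads gave 17.2% to 51.4% of the sum of a plate's cells with Neurog2, against 21.4% to 56.7% in cells with 0 Neurog2 reads.

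Neurog2 itself lies at chr3:127633135-127635631 (plus strand, mm10, GENCODE M21). The E-box letters that proneural factors are known to bind occurred before the start of several genes that the results turn on. The 250 bases before a RefSeq start (GRCm38.p6) are shown for 4 of them, which were chosen after their values were seen, because each holds CAGCTG, given in capitals. The windows lie at chr1:91414039-91414288 (minus strand) for Hes6, chr17:15376933-15377182 (minus strand) for Dll1, chr13:51846425-51846674 (plus strand) for Gadd45g and chr12:27342719-27342968 (minus strand) for Sox11. Dll1 has another RefSeq start, and the window before it at chr17:15375824-15376073 holds no CAGCTG.
Hes6: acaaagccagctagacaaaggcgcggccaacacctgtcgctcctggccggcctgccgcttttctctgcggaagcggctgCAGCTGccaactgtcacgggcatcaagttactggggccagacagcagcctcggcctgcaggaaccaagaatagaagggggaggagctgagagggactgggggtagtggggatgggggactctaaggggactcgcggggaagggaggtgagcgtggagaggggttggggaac
Dll1: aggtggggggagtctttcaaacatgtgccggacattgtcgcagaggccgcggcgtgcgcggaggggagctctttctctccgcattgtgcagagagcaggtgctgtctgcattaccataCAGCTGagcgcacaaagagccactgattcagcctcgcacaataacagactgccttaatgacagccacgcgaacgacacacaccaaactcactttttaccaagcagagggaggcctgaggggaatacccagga
Gadd45g: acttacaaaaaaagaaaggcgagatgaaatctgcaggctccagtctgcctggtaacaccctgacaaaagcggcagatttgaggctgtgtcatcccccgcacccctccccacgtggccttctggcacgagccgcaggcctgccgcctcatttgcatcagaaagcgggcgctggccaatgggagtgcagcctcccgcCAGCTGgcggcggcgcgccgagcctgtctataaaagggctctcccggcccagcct
Sox11: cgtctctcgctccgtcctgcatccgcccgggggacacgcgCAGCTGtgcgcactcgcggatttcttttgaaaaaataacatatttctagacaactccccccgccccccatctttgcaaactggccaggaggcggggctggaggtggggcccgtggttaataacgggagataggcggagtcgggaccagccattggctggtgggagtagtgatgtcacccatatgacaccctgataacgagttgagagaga
CAGCTG reads the same on both strands. It stood in such a window of 10 of 41 matched genes (24.4%) that were higher in cells with Neurog2 in the per-cell test described below, against 14.7% of 27025 genes in the table and 13.1% of the 6385 tested genes that matched. CAGATG, searched on both strands, stood in 7 of the 41 (17.1%), against 16.3% of all genes and 10.8% of tested genes. CATATG stood in 3 of the 41 (7.32%), against 3.98% of all genes and 1.58% of tested genes. CANNTG, which contains the other letters, stood in 23 of the 41 (56.1%), against 69.3% of all genes and 58.8% of tested genes. These shares describe letters in short windows and say nothing of binding.

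Neurog2 was common on Day 5 and nearly absent 3 days earlier. The share of cells at 100 CPM or more was 0 on Day 2, which allows a share of up to 0.688%, 0.407% on Day 3, 3.17% on Day 4, 24.1% on Day 5 and 19.1% among unselected Day 6 cells. In cells sorted for eGFP on Day 6 it was 26.5% in the eGFP+ group (22 of 83 cells) and 8.07% in the eGFP++ group (26 cells). On Day 2, 3 cells had any Neurog2 read. Plates RPI27 and RPI28 held 27.3% and 27.5% of cells at 100 CPM or more, and RPI25 and RPI26 had a near share with 20 of 80 and 21 of 84 cells. The pilot plates had 5.26% in TM016 (2 of 38 cells; 95% Wilson interval 1.46% to 17.3%) and 24.3% in TM019 (9 of 37 cells; 13.4% to 40.1%).

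**Figure D1:**
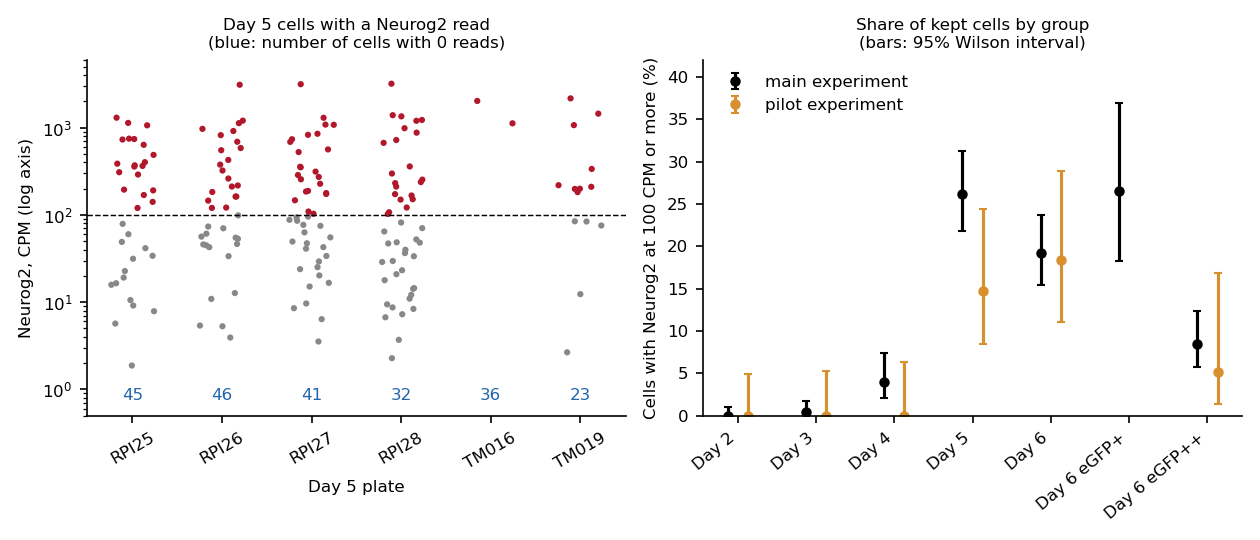
Left, Neurog2 in CPM (log axis) in each kept Day 5 cell with a Neurog2 read, by plate, with cells at 100 CPM or more in red and the number of cells with 0 reads in blue. Right, the percentage of kept cells at 100 CPM or more by group and experiment with 95% Wilson intervals, which was 0 on Day 2 and 24.1% of cells on Day 5.

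Within the 98 chosen cells Neurog2 ranged from 102.5 to 3199.7 CPM with a median of 357.8 CPM, and 5 to 2287 reads stood behind it. The cells nearest to the boundary had 102.5, 103.1, 107.3 and 109.3 CPM inside it, and 98.9, 95.6, 93.6 and 87.8 CPM outside it. In the plate sums used for the fits Neurog2 stood at 450.4, 583, 408.7, 701 and 731 CPM in the chosen cells of RPI25, RPI26, RPI27, RPI28 and TM019, the order of plates used for all lists of 5 values. Since these values chose the cells, Neurog2 was not tested and is left out of every count and of every adjustment of p-values.

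Between cells at 100 CPM or more and cells with 0 reads, no difference in depth passed a test before matching. The difference of median detected genes within plates was 68.3 genes higher in cells with Neurog2 on average, with 4 of 6 plates higher (exact two-sided sign-flip permutation p = 0.4375; the smallest p that 6 plates allow is 0.03125). Over all cells the median was 3420 genes in cells with Neurog2 and 3376 genes in cells with 0 reads. Spike-in RNA took 1.16 percentage points more of the reads in cells with Neurog2, on average over plates (exact permutation p = 0.21875). Cells with Neurog2 reads below 100 CPM were deeper, with a median of 4402 genes. When all cells with 1 or more Neurog2 reads were set against cells with 0, the difference in detected genes did pass. It was 369.75 genes on average, with 6 of 6 plates higher (exact permutation p = 0.03125).

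Over all genes, few differences passed the test on plate sums. Of 9348 genes, edgeR's quasi-likelihood test with plate as a block called 2 (0.0214%) at an adjusted p under 0.05. Tmsb4x was higher (0.0107% of genes) and Stra8 lower (0.0107%) in cells with Neurog2. The median log2 change over all tested genes was -0.16. Tmsb4x encodes thymosin beta 4, which binds actin monomers. It had 8412, 11209, 14049, 12126 and 10484 CPM in cells with Neurog2, against 3308, 4720.2, 2962, 3693 and 2177 CPM in cells with 0 reads. The groups did not overlap, and Tmsb4x rose by 1.76 ± 0.16 on the log2 scale (SE, n = 5 plates; edgeR adjusted p = 0.0134).

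Stra8, a retinoic acid-induced gene known from germ cells entering meiosis, had 9.48, 5.12, 0.773, 2.69 and 80.7 CPM in cells with Neurog2, against 1046, 417.3, 422.1, 95.6 and 1135 CPM in cells with 0 reads. It fell by 6.08 ± 0.69 (edgeR adjusted p = 0.0475), with groups that did not overlap. In cells with 0 reads, 1 cell gave 48.1% to 73.9% of each plate's Stra8 reads, and in cells with Neurog2 17.4% to 90.6%. Stra8 missed edgeR's threshold when any 1 main plate was left out, and Tmsb4x without RPI25, RPI27 or RPI28. With the pilot plate left out both were called. With reads summed over each experiment edgeR called 0 genes, while DESeq2 on the plate sums called 71 genes higher and 84 lower.

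Sox11, a factor of newly formed neurons, had 1119, 963, 932, 1408 and 1538 CPM in cells with Neurog2, against 589, 478.4, 512.98, 604 and 539.9 CPM in cells with 0 reads. All 5 plates with Neurog2 stood above all 5 without. The change in the sums was 1.11 ± 0.14 and edgeR did not call it (adjusted p = 0.0608), and the per-cell difference, from the test described next, was 1.73 ± 0.26 (limma adjusted p = 0.000754).

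A second test gave each cell the same weight. The mean of log2(CPM + 10) was taken over the matched cells of a class and plate and fitted with limma, with plate as a block. This test was added after the data had been seen, and the genes named for passing it were chosen after their values were seen. Its differences are on the log2(CPM + 10) scale, which understates the change of low genes. Of 8321 genes with a read in over 10% of matched cells, 54 were higher (0.649%) and 6 lower (0.0721%) in cells with Neurog2, 0.721% in all, and 847 had an unadjusted p under 0.05. All 60 had the same sign on all 5 plates and the same direction in the plate sums, and they included the 2 genes that edgeR called. The test favours genes of 1 sign on these plates, and the sums hold the same cells, so this is no independent support. The median difference over all tested genes was 0.03.

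**Figure D2:**
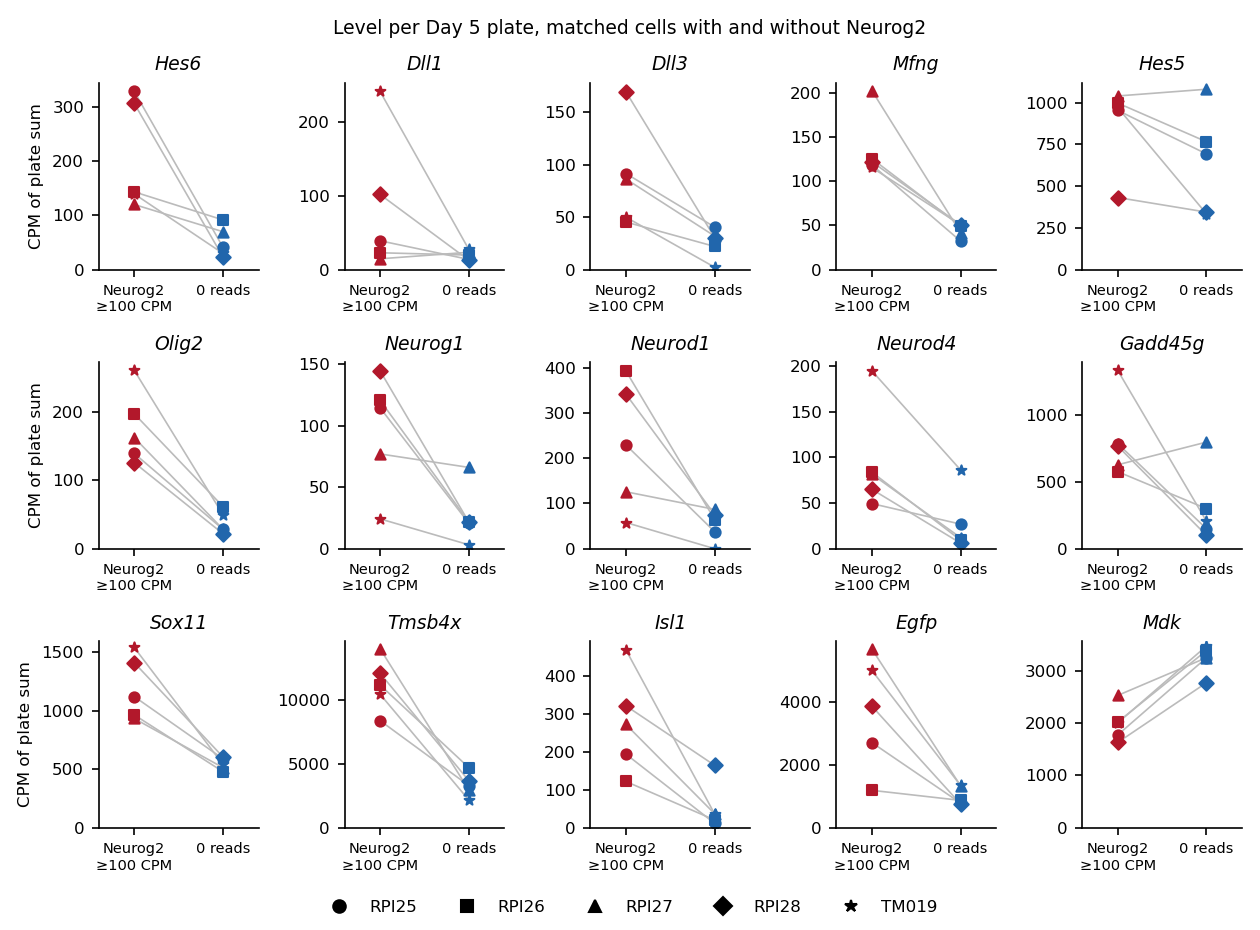
CPM of 15 genes in the plate sums of matched Day 5 cells with Neurog2 (left, red) and with 0 Neurog2 reads (right, blue), with 1 marker per plate and lines joining the classes of a plate. Tmsb4x, Sox11 and Olig2 are higher on every plate without overlap, while Dll1 and Hes5 overlap.

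Other bHLH factors accompanied Neurog2. Of 18 such genes on the list, 11 were tested in the per-cell test, and 7 were higher and 0 lower, with a positive difference in all 11 and a median of 1.16. Over all genes tested per cell, 0.649% were higher and 0.0721% lower, with a median of 0.03. The gene lists used here were chosen with earlier results of these data known. The 7 were Neurog1, Neurod1, Neurod4, Nhlh1, Nhlh2, Olig1 and Olig2. In the plate sums, 12 were tested and 0 were called by edgeR.

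Olig2, which marks motor neuron progenitors and precedes Neurog2 there, had 139.7, 197.8, 162.9, 126.2 and 261.5 CPM in cells with Neurog2, against 28.5, 61.8, 28.6, 21.9 and 49.9 CPM in cells with 0 reads. The groups did not overlap, and the change was 2.28 ± 0.30 in the sums (edgeR adjusted p = 0.0608) and 1.75 ± 0.32 per cell (limma adjusted p = 0.00496). Neurog1, the closest relative of Neurog2, had 114.6, 120.6, 77.05, 144.6 and 24.3 CPM in cells with Neurog2, against 20.7, 21.8, 66.1, 21.6 and 3.18 CPM in cells with 0 reads. Each plate was higher with Neurog2, though the pilot plate with Neurog2 lay within the range of the other class (per-cell difference 1.41 ± 0.24, limma adjusted p = 0.00235).

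Neurod1, which acts after the neurogenins in many lineages, had 229.1, 392.5, 125.7, 341.3 and 57.8 CPM in cells with Neurog2, against 37.4, 64.1, 86.8, 75.2 and 0 CPM in cells with 0 reads. The pilot value with Neurog2 was again inside the range without, and the per-cell difference was 1.59 ± 0.27 (limma adjusted p = 0.00327). Neurod4 had 49.5, 83.9, 81.7, 65.1 and 194.9 CPM in cells with Neurog2, against 26.9, 9.37, 12.1, 6.09 and 86.2 CPM in cells with 0 reads. TM019 was the highest plate in both classes (per-cell difference 1.24 ± 0.23, limma adjusted p = 0.00495). Nhlh1 and Nhlh2, bHLH genes of newborn neurons, differed by 0.98 ± 0.21 and 1.16 ± 0.24 per cell (limma adjusted p = 0.0195 and 0.0156). Among the E proteins, Tcf4 differed by 1.31 ± 0.32 (limma adjusted p = 0.0534), Tcf12 by 0.22 ± 0.21 and Tcf3 by 0.07 ± 0.26, and none passed.

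In the Notch pathway the ligand Dll3 and the modifier Mfng differed, and the receptors did not pass. Of 23 genes on the list 17 were tested per cell, and 2 were higher and 0 lower, with a median difference of 0.06. Among all genes tested per cell, 0.649% were higher and 0.0721% lower, with a median of 0.03. Mfng, a glycosyltransferase that modifies Notch receptors, had 118.7, 125.7, 202.8, 122.2 and 115.7 CPM in cells with Neurog2, against 32.3, 49.4, 41.9, 50.8 and 50.7 CPM in cells with 0 reads. The groups did not overlap (per-cell difference 1.62 ± 0.26, limma adjusted p = 0.00206). Dll3, a ligand known to act on Notch within its own cell, had 91.5, 45.3, 86.3, 169.3 and 49.9 CPM in cells with Neurog2, against 40.5, 22.03, 31.9, 30.4 and 2.22 CPM in cells with 0 reads. All values with Neurog2 lay above those without (per-cell difference 1.14 ± 0.24, limma adjusted p = 0.0195).

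Dll1, the ligand that activates Notch on neighbouring cells, was uneven. It had 39.2, 22.9, 14.7, 101.95 and 241.8 CPM in cells with Neurog2, against 13.8, 19.8, 23.5, 12.8 and 27.3 CPM in cells with 0 reads. RPI28 and TM019 stood far above the other class, RPI25 less so, while RPI26 and RPI27 lay within its range. The change was 1.46 ± 0.71 in the sums (edgeR adjusted p = 0.973) and 0.70 ± 0.26 per cell (limma adjusted p = 0.314) and neither test called it. Dll1 was higher on 4 of 5 plates in the sums and on 3 of 5 per cell. Dll4 had a read in 13.3% of all 98 cells with Neurog2 and in 3.14% of all cells with 0 reads (0.229% on Day 2), and its reads were too few for the per-cell test.

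Notch1, a Notch receptor, differed by 0.76 ± 0.25 per cell with 5 of 5 plates higher (limma adjusted p = 0.235). Notch2 and Notch3 differed by -0.26 ± 0.13 and -0.23 ± 0.17 (limma adjusted p = 0.489 and 0.694). Numbl, a relative of the Notch inhibitor Numb, differed by 1.16 ± 0.28 with 5 of 5 plates higher and just missed the threshold (limma adjusted p = 0.052). Rbpj, the DNA-binding partner of activated Notch, differed by 0.27 ± 0.26 (limma adjusted p = 0.778).

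Among the Hes, Hey and Id repressors, Hes6 alone passed the per-cell test: of 12 genes 8 were tested, 1 was higher and 0 were lower. The shares over all genes tested per cell were 0.649% higher and 0.0721% lower. Hes6 had 328.05, 143.1, 119.8, 305.9 and 139.4 CPM in cells with Neurog2, against 41.2, 91.4, 69.7, 23.1 and 29.7 CPM in cells with 0 reads. The groups did not overlap. The change was 2.07 ± 0.51 in the sums, which edgeR did not call (adjusted p = 0.693), and 1.57 ± 0.27 per cell (limma adjusted p = 0.0027). Hes6 and Dll1 had been named with Neurog2 when results of these data were known, so neither is independent support.

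Hes5 and Hes1, the repressors that Notch activates, did not pass. Hes5 had 954, 998, 1041, 432.1 and 971 CPM in cells with Neurog2, against 693, 766, 1081, 344.5 and 334.1 CPM in cells with 0 reads, with groups that overlapped. The sums gave 0.52 ± 0.22 (edgeR adjusted p = 0.923) and the per-cell means -0.29 ± 0.31 (limma adjusted p = 0.807), with opposite signs. In the sums, 1 cell gave 19.9% to 99.9% of a plate's Hes5 reads with Neurog2, against 13.7% to 55.4% without. Hes1 had 14.8, 19.7, 46.6, 47.2 and 7.9 CPM in cells with Neurog2, against 86.8, 57.2, 72.7, 118.98 and 11.8 CPM in cells with 0 reads, a per-cell difference of -0.54 ± 0.23 (limma adjusted p = 0.426). Hes1 was lower with Neurog2 on each plate in the sums. Id3, an inhibitor of bHLH dimers, was lower on 5 of 5 plates per cell with a difference of -0.92 ± 0.26 (limma adjusted p = 0.118). Id1 differed by 0.54 ± 0.30 in the other direction (limma adjusted p = 0.567).

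**Figure D3:**
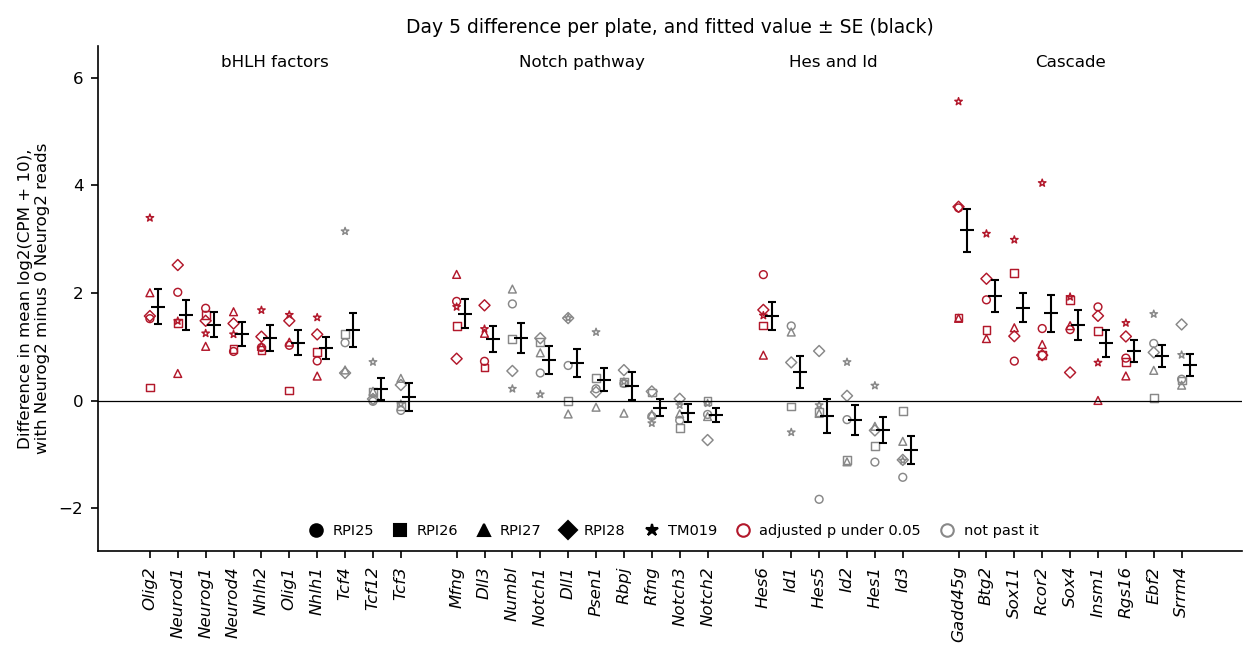
Difference in mean log2(CPM + 10) between matched Day 5 cells with Neurog2 and with 0 Neurog2 reads, for genes of 4 lists, with 1 marker per plate and the fitted value ± SE in black. Genes past an adjusted p of 0.05 in limma are red, among them 7 bHLH factors, 2 Notch pathway genes and 1 of the Hes, Hey and Id genes.

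The wider list of proneural cascade genes, known from other studies to lie downstream of neurogenins, held more calls than any other list used here. Of 32 genes 25 were tested per cell, and 14 were higher and 0 lower, with a positive difference in all 25 and a median of 0.98. Over all genes tested per cell, 0.649% were higher and the median was 0.03. This list too was chosen with earlier results of these data known. The list shares Neurod1, Neurod4, Nhlh1, Nhlh2, Hes6, Dll3 and Mfng with the lists above. In the sums 27 were tested and edgeR called 0.

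Gadd45g, a stress-response family gene that slows the cell cycle, had the largest per-cell difference of the list. It had 786, 576, 627, 768 and 1333 CPM in cells with Neurog2, against 148.8, 299.6, 797, 99.8 and 205.3 CPM in cells with 0 reads. In the sums RPI27 went the other way. The per-cell differences of 3.58, 1.55, 1.53, 3.604 and 5.56 were positive on every plate, with a fitted value of 3.16 ± 0.40 (limma adjusted p = 7.95e-05). Btg2, an antiproliferative gene of progenitors that divide to make neurons, had 149.6, 147.4, 206.9, 238.04 and 243.2 CPM in cells with Neurog2, against 23.1, 91.9, 87.3, 51.7 and 161.8 CPM in cells with 0 reads (per-cell difference 1.94 ± 0.29, limma adjusted p = 0.000754). RPI26 and RPI25 with Neurog2 lay below the pilot plate without.

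Sox4, a close relative of Sox11, had 157.02, 187.6, 208.98, 225.01 and 316.8 CPM in cells with Neurog2, against 43.6, 80.3, 74.9, 79.1 and 59.7 CPM in cells with 0 reads. The groups did not overlap (per-cell difference 1.41 ± 0.27, limma adjusted p = 0.00984). Insm1, a zinc finger factor of progenitors committed to neurogenesis, had 168.97, 115.9, 25.3, 193.1 and 22.6 CPM in cells with Neurog2, against 7.79, 24.6, 69.1, 32.3 and 0 CPM in cells with 0 reads. RPI27 and TM019 with Neurog2 fell within the range without (per-cell difference 1.07 ± 0.25, limma adjusted p = 0.044). Rcor2, a corepressor subunit, differed by 1.63 ± 0.34, and Rgs16, a regulator of G protein signalling, by 0.92 ± 0.21 (limma adjusted p = 0.0195 and 0.0315). Ebf2, Srrm4 and Igfbpl1 were higher per cell on 5 of 5 plates but did not pass, at 0.84 ± 0.20, 0.67 ± 0.20 and 0.94 ± 0.24 (limma adjusted p = 0.052, 0.148 and 0.0699).

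Progenitor genes showed few differences. Of 24 ventral progenitor factors 13 were tested per cell, and 2 were higher, Olig1 and Olig2, and 0 lower. The median was -0.28, against 0.03 over all genes tested per cell, of which 0.649% were higher and 0.0721% lower. Pax6, which marks ventral and intermediate progenitors, differed by -0.29 ± 0.29 (limma adjusted p = 0.783). Sox2 and Sox3, general progenitor factors, differed by -0.51 ± 0.27 and -0.08 ± 0.29 (limma adjusted p = 0.532 and 0.957). Nkx6-1, a ventral factor needed for motor neurons, was higher on 5 of 5 plates at 0.43 ± 0.19 without passing (limma adjusted p = 0.43). Among 16 tested radial glia and structural genes, 1 was higher per cell, the fatty acid carrier Fabp5 at 1.44 ± 0.26 (limma adjusted p = 0.00495), and 0 were lower. Summed over all 20 genes of that list, the level was 4399.8 to 5507 CPM in cells with Neurog2 and 5791 to 6235 CPM in cells with 0 reads, lower with Neurog2 on 5 of 5 plates. Without Mdk, its most abundant gene, the other 19 summed to 2659.5 to 3616 CPM in cells with Neurog2 and 2377 to 3057 CPM in cells with 0 reads, higher with Neurog2 on 4 of 5 plates. Mdk, the growth factor midkine, had 1774, 2019.7, 2529.9, 1631 and 2005 CPM in cells with Neurog2, against 3251, 3389, 3252, 2773 and 3475 CPM in cells with 0 reads. These groups did not overlap, yet Mdk missed the threshold in edgeR at -0.71 ± 0.10 (adjusted p = 0.0608) and its per-cell difference was -0.38 ± 0.14 (limma adjusted p = 0.309). Vim, an intermediate filament gene of progenitors, differed by 0.92 ± 0.23 (limma adjusted p = 0.0543).

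The motor neuron factors Isl1 and Lhx3 were higher in cells with Neurog2, and the other motor neuron genes did not pass. Of 10 motor neuron genes tested per cell, 2 were higher and 0 lower, with a median of 0.36. Among all genes tested per cell, 0.649% were higher and 0.0721% lower, with a median of 0.03. Summed over all 20 genes of the list, the level was higher with Neurog2 on 5 of 5 plates, and without Isl1 on 3 of 5. Isl1, a factor of postmitotic motor neurons, had 193.7, 121.8, 271.6, 320.7 and 467.7 CPM in cells with Neurog2, against 11.6, 20.5, 36.7, 164.02 and 35.9 CPM in cells with 0 reads. RPI28 was high in both classes, and the per-cell difference was 1.67 ± 0.27 (limma adjusted p = 0.0021). Lhx3, its partner in motor neurons, had 173.9, 47.7, 107.2, 204.4 and 195.8 CPM in cells with Neurog2, against 36.7, 13.9, 32.02, 15.8 and 0.159 CPM in cells with 0 reads, with groups that did not overlap (per-cell difference 1.30 ± 0.23, limma adjusted p = 0.00395). Slit2, an axon guidance cue of motor neurons, differed by -0.47 ± 0.16 with 0 of 5 plates higher (limma adjusted p = 0.232).

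Of 28 pan-neuronal genes tested per cell, 2 were higher and 0 lower, with a median of 0.08. Among all genes tested per cell, 0.649% were higher and 0.0721% lower, with a median of 0.03. The 2 were the tubulin Tubb2b at 1.05 ± 0.23 and the RNA-binding protein gene Elavl4 at 1.19 ± 0.28 (limma adjusted p = 0.0284 and 0.0407). Genes of growing axons were not among them. Stmn2 averaged 112.7 ± 96.97 CPM in cells with Neurog2 and 286.3 ± 124.3 CPM in cells with 0 reads (SD, n = 5 plates each), lower with Neurog2 on each plate, with a per-cell difference of -0.21 ± 0.23 (limma adjusted p = 0.811). Gap43 averaged 271.5 ± 209.3 CPM in cells with Neurog2 and 545.8 ± 289.8 CPM in cells with 0 reads (per-cell difference -0.50 ± 0.28, limma adjusted p = 0.566).

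The tables also list Egfp. It had 2721, 1197, 5708, 3886 and 5025 CPM in cells with Neurog2, against 789, 876, 1339, 759.6 and 1352 CPM in cells with 0 reads. The groups overlapped through RPI26 with Neurog2 alone, and the per-cell difference was 3.05 ± 0.36 (limma adjusted p = 2.86e-05; edgeR adjusted p = 0.0732 in the sums). Egfp had a read in 20.9% of Day 2 cells, at a median of 209684.5 reads per cell, where Isl1 had one in 2.75%. Among all Day 5 cells Egfp had a read in 88.8% of cells with Neurog2 and 55.6% of cells with 0 Neurog2 reads, at medians of 155624.5 and 150967 reads per cell. The source of the Day 2 reads was not tested.

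Among the other genes higher in the per-cell test, Btbd17, a BTB domain gene, had the largest difference. It had 514.3, 783, 1433, 1121 and 2243 CPM in cells with Neurog2, against 259.6, 276.8, 276.4, 227.01 and 307.9 CPM in cells with 0 reads. The groups did not overlap (per-cell difference 3.17 ± 0.29, limma adjusted p = 3.19e-07). Miat, a long noncoding RNA, differed by 1.98 ± 0.28, the p53-induced gene Trp53i11 by 2.16 ± 0.31, Fam110a by 1.72 ± 0.26 and Prdm8, a transcriptional repressor of the nervous system, by 2.24 ± 0.40 (limma adjusted p = 0.000431, 0.00047, 0.000754 and 0.00395). Ldb1, the adaptor that joins LIM factors such as Isl1 and Lhx3, differed by 1.05 ± 0.25, and Cotl1, which like Tmsb4x encodes an actin-binding protein, by 1.34 ± 0.26 (limma adjusted p = 0.0416 and 0.00902). The zinc finger factor Sp8, the surface protein gene Cd24a and the splicing regulator Ptbp2 differed by 1.10 ± 0.23, 1.04 ± 0.23 and 1.16 ± 0.28 (limma adjusted p = 0.0195, 0.0282 and 0.0451).

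The 6 genes that were lower per cell were Stra8, Slc2a3, Lgals1, Cyp26a1, Rac1 and Rnf128. Slc2a3, a glucose transporter, had 37.9, 73.7, 78.3, 61.5 and 35.3 CPM in cells with Neurog2, against 198.9, 191.2, 318.3, 204.2 and 77.2 CPM in cells with 0 reads (per-cell difference -1.25 ± 0.27, limma adjusted p = 0.0273). Cyp26a1, the enzyme that degrades retinoic acid, had 90.7, 29.2, 11.6, 8.08 and 0 CPM in cells with Neurog2, against 227.1, 69.4, 125.7, 214.8 and 165.8 CPM in cells with 0 reads (per-cell difference -1.22 ± 0.27, limma adjusted p = 0.0282). It was the 1 retinoid gene of 15 tested to pass, where 0.721% of all genes passed. The galectin gene Lgals1 and the small GTPase gene Rac1 differed by -1.02 ± 0.23 and -1.26 ± 0.28 (limma adjusted p = 0.0282 and 0.0299).

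Cell cycle genes did not pass in either direction, apart from Gadd45g and Btg2 on the list of cell cycle exit genes. Of that list 2 were higher and 0 lower of 10 tested per cell, against 0.649% and 0.0721% of all genes. Of 29 S phase genes tested per cell 0 were higher and 0 lower, with a median of -0.27, and of 34 G2 and mitosis genes 0 were higher and 0 lower, with a median of 0.16. Summed, the S phase genes were higher with Neurog2 on 1 of 5 plates and the G2 and mitosis genes on 4 of 5. The replication clamp gene Pcna averaged 484.03 ± 69.8 CPM in cells with Neurog2 and 628 ± 192.05 CPM in cells with 0 reads. The mitotic topoisomerase gene Top2a averaged 1136 ± 650.0 CPM in cells with Neurog2 and 690.1 ± 139.2 CPM in cells with 0 reads (SD, n = 5 plates each; limma adjusted p = 0.783 and 0.871).

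Some markers of other cells moved with the comparison. The 20 endoderm markers summed to 47.4 to 145.8 CPM in cells with Neurog2 and to 195.9 to 846 CPM in cells with 0 reads, lower with Neurog2 on 5 of 5 plates, and 2 of the 20 were at 0 in all sums. The laminin gene Lamb1 had 11.95, 0, 0, 4.04 and 0 CPM in cells with Neurog2, against 82.7, 10.1, 13.5, 246.8 and 9.05 CPM in cells with 0 reads, and it did not pass (per-cell difference -0.65 ± 0.16, limma adjusted p = 0.0543). In cells with 0 reads, 1 cell gave 41.4% to 80.7% of a plate's Lamb1 reads. Such shares were not taken for the summed lists, which may also rest on few cells. Of 5 endoderm markers tested per cell 0 were higher and 0 lower. The 10 floor plate markers summed to 0.266 to 9.11 CPM in cells with Neurog2 and 19.7 to 108.2 CPM in cells with 0 reads, and 3 of the 10 were at 0 in all sums. The 16 pluripotency markers summed to 1.68 to 60.4 CPM in cells with Neurog2 and 25.5 to 331.9 CPM in cells with 0 reads, and 1 of the 16 was at 0 in all sums. Both lists were lower with Neurog2 on 5 of 5 plates. The 18 p53 and apoptosis genes summed to 528.5 to 1226 CPM in cells with Neurog2 and 1075 to 1531 CPM in cells with 0 reads, lower with Neurog2 on 5 of 5 plates, with 0 of 15 called per cell. Other lists did not run 1 way. The 13 neural crest and dorsal markers summed to 0 to 36.7 CPM in cells with Neurog2 and 1.09 to 131.001 CPM in cells with 0 reads, higher with Neurog2 on 2 of 5 plates, and 4 of the 13 were at 0 in all sums. The 15 mesoderm, blood and vessel markers summed to 9.85 to 75.2 CPM in cells with Neurog2 and 14.8 to 86.4 CPM in cells with 0 reads, also higher on 2 of 5 plates, with 7 at 0 in all sums. The 10 glial markers summed to 38.3 to 223.9 CPM in cells with Neurog2 and 20.9 to 84.7 CPM in cells with 0 reads, higher on 4 of 5 plates and, without Olig1, on 3 of 5, with 4 of the 10 at 0 in all sums. The interneuron factors were higher on 2 of 5 plates. The part of these other cells in the differences above was not tested.

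**Figure D4:**
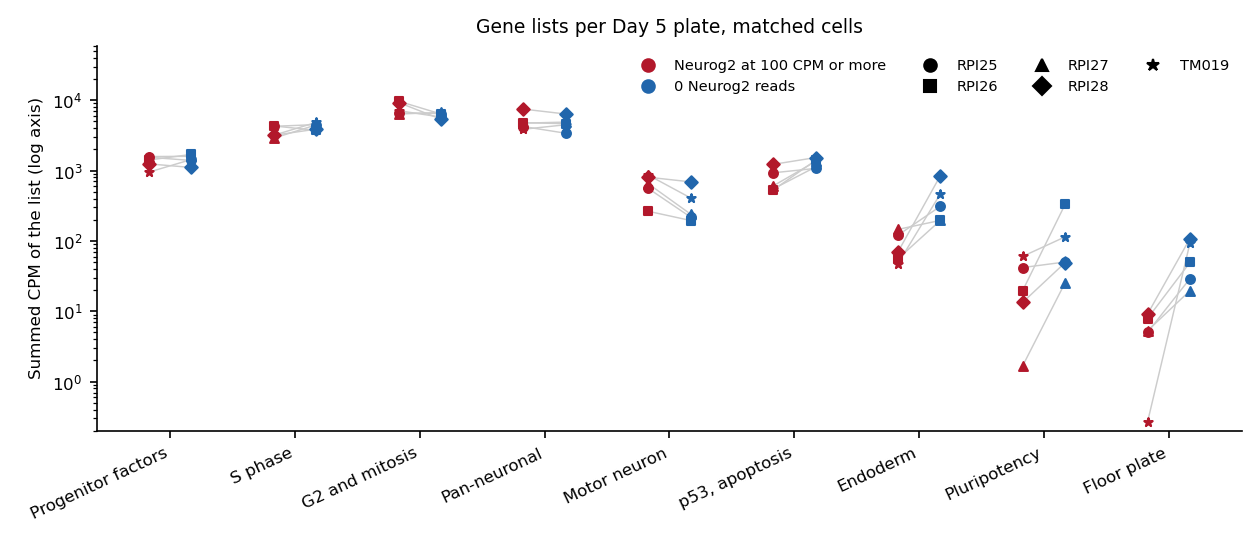
Summed CPM (log axis) of 9 gene lists in matched Day 5 cells, 1 marker per plate, with Neurog2 (left, red) and with 0 Neurog2 reads (right, blue). Endoderm, pluripotency, floor plate and p53 lists are lower with Neurog2 on all 5 plates, and the motor neuron list is higher on all 5 (on 3 of 5 without Isl1).

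The experiments could be compared through 1 pilot plate, with 7 cells with Neurog2 and 13 with 0 reads. With 1 pilot plate, edgeR's fit of a difference between the experiments holds no spread between pilot plates. For that reason no p-value is given, and the count of genes that the fit flagged is not read as a result. The fitted differences below, pilot minus main on the log2 scale, are effect sizes of genes from 31 looked up. Apart from Hes6, Olig2 and Tmsb4x, the genes named were picked because their p-values in that fit were the smallest. They are therefore no fair sample of the 31. Genes not picked also had large fitted differences, such as Dll3 at 2.94. Id1 had 502.4, 928, 715, 301.4 and 25.4 CPM in cells with Neurog2, against 142.8, 289.5, 316.3, 172.5 and 235.7 CPM in cells with 0 reads. It was higher with Neurog2 on the 4 main plates and lower on the pilot plate, a fitted difference between experiments of -4.58. For Hes5 and Stra8 the fitted differences were 1.26 and 2.96. In cells with Neurog2, 1 cell gave up to 99.9% of a plate's Hes5 reads and up to 90.6% of its Stra8 reads. The per-cell Hes5 difference on TM019 was -0.08.

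For the 6 other genes picked, 1 pilot class stood at 0 or near it, so their fitted values depend on a prior count and are no bounds. Lhx3, Neurod1 and Nhlh1 had fitted differences of 7.66, 8.81 and 7.89, with almost no pilot reads in cells with 0 Neurog2 reads. Cyp26a1, Lgals1 and Id3 had fitted differences of -9.74, -7.55 and -10.99, with 0 pilot reads in cells with Neurog2. Insm1 and Lamb1, which were not picked, also had 1 pilot class at 0, with fitted differences of 7.35 and -3.09. For Hes6, Olig2 and Tmsb4x the fitted difference between experiments was 0.22, 0.14 and 0.63.

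The cells with Neurog2 below 100 CPM were set beside both classes as a description, after each cell was thinned to 10000 reads because they were deeper. Hes6 had a read in 44.9% of cells at 100 CPM or more, 25.6% of cells below 100 CPM and 19.4% of cells with 0 reads. Neurod1 had a read in 44.9%, 16.3% and 12.4% of these classes in the same order, and Lhx3 in 33.7%, 6.98% and 6.91%. Dll3 stood at 33.7%, 11.6% and 11.1%, and Dll1 at 22.4%, 11.6% and 10.1%. For these genes the cells below 100 CPM lay nearer to the cells with 0 reads. Olig2 was spread more evenly, at 42.9%, 30.2% and 15.2%, and Sox11 had a read in 92.9%, 90.7% and 70.97%. On Day 2, thinned in the same way, the shares were 19.8% for Hes6, 6.99% for Neurod1, 0.4662% for Lhx3, 3.26% for Dll3, 6.29% for Dll1, 0.932% for Olig2 and 30.1% for Sox11. Of these genes Hes6 alone had a share in cells with 0 Neurog2 reads as low as on Day 2, which was not tested. Unthinned, Hes6 had a read in 66.3%, 55.8% and 39.5% of the 3 classes and in 43.6% of Day 2 cells, at median depths of 155624.5, 202416 and 150967 reads per cell in the classes and 209684.5 on Day 2.

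Within single cells, reads of progenitor and motor neuron factors were counted together. Olig2 and Isl1 both had a read in 40 of 98 cells with Neurog2 (40.8%) and in 20 cells with 0 reads (8.97%). Olig2 without Isl1 was seen in 25 and 56 cells of these classes, and Isl1 without Olig2 in 8 and 25. Isl1 and Lhx3 both had a read in 34 cells with Neurog2 (34.7%) and in 13 cells with 0 reads (5.83%). Dll1 and Hes6 both had a read in 30 cells with Neurog2 (30.6%) and in 23 cells with 0 reads (10.3%), while Dll1 without Hes6 was seen in 8 cells with Neurog2 and in 18 cells with 0 reads. These are counts over cells of 6 plates, given without a test. A pair is read together more often wherever each gene is read more often, so they show no link beyond that.

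The same comparison was made in unselected Day 6 cells on 6 plates, as an addition after the data had been seen. In limma's per-cell test 14 of 7661 genes were higher (0.183%) and 11 lower (0.144%) in Day 6 cells with Neurog2, 0.326% in all. In the Day 6 plate sums edgeR called 0 of 8593. Of the 54 genes higher on Day 5, 53 were measured on Day 6. Of these, 45 had a positive Day 6 difference, where 51.1% of all Day 6 genes did. The genes higher on both days were 5, which is 9.26% of the Day 5 genes and 35.7% of the Day 6 genes: Gadd45g, Prdm8, Hes6, Neurog1 and Sp8. Hes6 differed by 1.504 ± 0.32 on Day 6 (limma adjusted p = 0.0472) and Neurog1 by 1.26 ± 0.24 (limma adjusted p = 0.0293). Dll1 differed by 0.81 ± 0.22 on Day 6 with 6 of 6 plates higher, again without passing (limma adjusted p = 0.173).

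The Day 6 genes that were lower with Neurog2 included pan-neuronal genes, which had not passed on Day 5. Stmn2 differed by -1.998 ± 0.36, Gap43 by -1.70 ± 0.30 and the microtubule protein gene Mapt by -1.48 ± 0.29 on Day 6 (limma adjusted p = 0.0166, 0.0166 and 0.0295). Of 30 pan-neuronal genes tested on Day 6, 0 were higher and 5 lower, with a median of -0.91. The difference between the days passed limma's test for 4 of 8708 genes (0.0459%). Egfp differed by 4.58 ± 0.58 between the days, being higher with Neurog2 on Day 5 and at -1.52 ± 0.36 on Day 6 (limma adjusted p of the difference = 0.000168). Tmsb4x differed by 1.78 ± 0.29, Isl1 by 2.17 ± 0.38 and Cntn2, an axonal adhesion gene, by 2.39 ± 0.37 (limma adjusted p = 0.00531, 0.00984 and 0.00318). In the plate sums edgeR called the difference between the days for 1 of 8843 genes (0.0113%), Egfp at 2.85 ± 0.42 (adjusted p = 0.0324). Tmsb4x, Isl1 and Cntn2 did not pass there, at 1.22 ± 0.29, 4.36 ± 0.78 and 3.44 ± 0.63 (edgeR adjusted p = 0.691, 0.144 and 0.144). For Stmn2 the per-cell difference between the days was 1.79 ± 0.45 and did not pass (limma adjusted p = 0.229), nor did that of Sox11 at 1.67 ± 0.43 (limma adjusted p = 0.241). Plates differ between the days, and each day's plates hold cells of that day alone, so day and plate cannot be told apart.

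**Figure D5:**
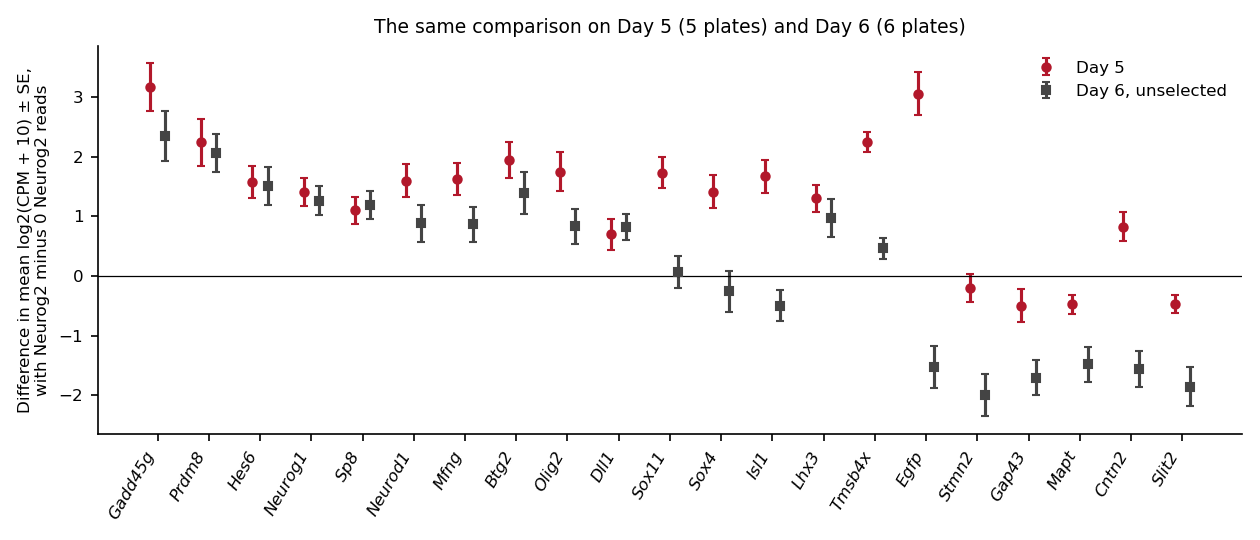
Fitted difference in mean log2(CPM + 10) ± SE between cells with Neurog2 and with 0 Neurog2 reads for 21 genes on Day 5 (red, 5 plates) and in unselected Day 6 cells (dark, 6 plates). Gadd45g, Prdm8, Hes6, Neurog1 and Sp8 passed on both days, and the difference between the days passed for Egfp, Tmsb4x, Isl1 and Cntn2.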

How the data were processed

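The deposited values are whole-number counts of reads per gene and cell, with no normalization, on 35 plates. Alignment used mouse build mm10, and TopHat2 2.1.1 and HTSeq 0.6.1 are named, per the submitters' processing notes. The sources used here do not give their roles or say whether strand was used. The reads carry no molecular identifiers. Each column of a plate's table was taken as a cell of that plate's day and experiment, and 40 columns of 1 table that matched no sample were not used. Gene rows excluded spike-ins and HTSeq summary lines, which held 36.0% of Day 5 reads. Of 23995 gene names, 23968 occurred in all tables and 27 were left out.

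Of 464 Day 5 wells, 407 passed the limit of 500 detected genes (nearest inside 501, 539 and 611, nearest outside 433, 457 and 491), and 223 of them had 0 Neurog2 reads, of which 152 were matched. On Day 2, 436 cells passed. Each cell with Neurog2 was matched, within its plate, to up to 2 cells with 0 Neurog2 reads whose number of detected genes was within a factor of 1.25. Plates with at least 3 matched cells with Neurog2 entered. Counts of matched cells were summed per class and plate and tested with edgeR 4.0.16 (quasi-likelihood, TMM scaling, plate as a block, Benjamini-Hochberg adjustment) in R 4.3.3. CPM of single genes in plate sums are TMM-scaled, and those of summed lists are not. The SE beside an edgeR log2 change was back-calculated, as the change divided by the square root of the test's F statistic. Neurog2 stayed in the fits but took no part in the adjustment. At an unadjusted p under 0.05, edgeR listed 479 genes on Day 5, 450 on Day 6 and 175 for sums per experiment. The classes of a plate are paired because they come from the same plate. Means over cells of log2(CPM + 10) were fitted with limma 3.58.1, a choice made after the data had been seen. DESeq2 1.42.0 was an alternative. Exact sign-flip tests and all other steps used Python 3.11.15, numpy 2.4.6, pandas 2.3.3 and scipy 1.17.1. Intervals are 95% Wilson, and the limit for a count of 0 is 3 counts of the total. Plates of 1 experiment may share a culture.

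The cells, the gene lists and the tests were chosen with earlier results of these data known. Genes were named if they passed the test within the Notch, Hes, bHLH or cascade lists. Others were named for the smallest adjusted p (up to 3) or the highest CPM in another list. The 12 largest rises and 12 largest falls among genes that edgeR called could also be named. These needed at least 20 CPM, the same direction in both experiments and an established gene name. This last route named Tmsb4x and Stra8 alone. Genes that passed in the per-cell test were added after their values were seen. Other settings tried were the matching, the unit of summing, the block, the class boundary, the cell filter, thinning to 10000 reads, counting cells, the scaling, the tool, the filter on low counts and leaving out plates.

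On simulated data for the plate sums (8583 genes), edgeR called 1, 5, 18 and 29 of 50 genes changed by 2, 4, 8 and 16-fold, and 1 of 8398 unchanged genes. For the per-cell means (8322 genes), limma called 7, 47, 50 and 50 of 50 genes shifted by 0.5, 1, 1.5 and 2 log2 units, and 9 of 8122 unchanged genes. Both simulations drew each value independently, with the kind of noise that the tool assumes. For limma this was normal noise with 1 variance per gene on all plates. They cannot show how the tests behave on the real cells, where values of 0 are common and 1 cell can dominate. The values of 1 listed gene are not reported here. Promoter windows are from RefSeq (GRCm38.p6).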

Additional observations from a re-analysis of the deposited data

Results flagged for a closer look

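Single plates stood apart from the other plates of their class in 10 of 65 sets of values checked, where the 95% critical value flags about 1 in 20 sets by chance. Among matched cells with Neurog2, Mfng reached 202.8 CPM on RPI27, Neurod4 194.9 CPM on TM019, Gadd45g 1333 CPM on TM019 and Stra8 80.7 CPM on TM019, all above the other plates. Hes5 was at 432.1 CPM on RPI28, below the others. Among matched cells with 0 Neurog2 reads, Neurod4 reached 86.2 CPM on TM019, Gadd45g 797 CPM on RPI27, Isl1 164.02 CPM on RPI28 and Rac1 712 CPM on TM019. The share of cells with Neurog2 at 100 CPM or more was 5.26% on TM016, below the other 5 plates.

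The Neurog2 difference was larger on Day 5 than in unselected Day 6 cells for 4 genes in limma's per-cell test of the difference, added after the data had been seen: Egfp by 4.58, Cntn2 by 2.39, Isl1 by 2.17 and Tmsb4x by 1.78 on the log2(CPM + 10) scale. Between the pilot and the main experiment, edgeR's fit flagged 1282 genes. With 1 pilot plate that fit holds no spread between pilot plates. The number therefore cannot show that these genes differed between the experiments, and it is not read as a result. The causes of the differences between the days were not tested.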

How the results depend on the processing

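edgeR called 2 genes on plate sums (1 higher, 1 lower; 0.0214% of genes tested). The share called was 0.0116% (1 gene) with 1 matched cell per cell, 0.0140% (1) with 500 CPM or more, and 0 with no matching, with 1 or more Neurog2 reads against 0, and when cells with a read were counted. It was 0.251% (7) with cells thinned to 10000 reads, 0.0733% (11) without a filter on low counts and 1.88% (71 higher, 84 lower) with DESeq2. Relative log expression scaling called 3 genes, Sox11 among them. Leaving out 1 plate gave 0 (without RPI25, RPI27 or RPI28) to 0.157% (15 genes, without TM019, which is the main experiment only), with 0.0213% (2) without RPI26. Tmsb4x turned to -0.0386 when cells with a read were counted. Of 46 named genes that edgeR did not call, 21 changed sign under at least 1 of 18 alternatives. The difference in detected genes was -69.5 in cells with 1000 or more genes, and leaving out 1 plate gave 13.7 to 143.1 genes. For any Neurog2 read against 0 it was 369.75 genes and passed (exact permutation p = 0.03125).

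The per-cell test and its alternatives were added after the data had been seen. Its 60 calls (0.721% of genes tested) became 0.300% (25) with a pseudocount of 100 CPM, 1.54% (9 of them lower) with no matching and 0.00666% (1) with no filter on low values. Leaving out RPI25, RPI26, RPI27 or RPI28 gave 0.312%, 0.445%, 0.300% and 0.385% (26, 37, 25 and 32 genes), and leaving out TM019 gave 1.07% (89 genes, 59 of the 60 among them). When each plate was left out in turn, 22 genes were called every time: Btbd17, Btg2, Ddc, Egfp, Fabp5, Fam110a, Gadd45g, Hes6, Isl1, Lhx3, Mfng, Miat, Neurod1, Neurog1, Olig2, Plk3, Prdm8, Rhbdl3, Sox11, Tmsb4x, Trp53i11 and Utrn. None of the 60 changed sign under the 11 alternatives, which draw on the same plates.

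With no replicate block, so that the pairing of classes within a plate was ignored, edgeR called 4 genes (0.0428%) and the per-cell test 29 (0.349%). With reads summed per experiment and experiment as the block, edgeR called 0. The pilot experiment alone could not be fitted, since 1 pilot plate leaves no residual degrees of freedom. The causes of these shifts were not tested. A gene with few reads per plate can rest on 1 cell, which limits what these depths show for low genes.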
